A study of Homo sapiens with 4 samples.

Results

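Keratins, tight junction genes, desmosome genes, connexins and nectins were followed as 1 group in nascent RNA from HCT116 cells, a human colorectal carcinoma line of epithelial origin. The members were chosen by symbol, whatever their values, and number 125 of the 60656 gene IDs in the tables: 55 keratins, 32 tight junction genes, 15 desmosome genes, 17 connexins, and 6 others made up of the 4 nectins, CTNND1 and JCAD. The assay, TTchem-seq, reads RNA made during a short pulse, here 30 min of 1 mM 4-thiouridine, a uridine analog that cells build into new transcripts so that these can be purified. In the 2 DKO libraries both TOP2A copies carry the mAID degron and TOP2B was deleted with CRISPR/Cas9. Auxin at 500 µM for 8 h served to degrade the TOP2A protein. The 2 WT libraries are labelled wildtype. The protocols name TOP2A mAID cells with TOP2B intact as the other line and record no auxin for it. Cells of both groups were held in G1 with 2 µM palbociclib, a CDK4 and CDK6 inhibitor, for 28 h. Loss of both type II topoisomerases, auxin and any difference between clones therefore cannot be told apart, and the number of clones is not given in the sources used here. The comparison asks what G1 transcription looks like without type II topoisomerases, the enzymes that relieve supercoils and tangles in DNA.

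Keratins are the intermediate filaments of epithelial cells and assemble as pairs of a type I and a type II chain. Desmosomes anchor these filaments at the cell border through desmosomal cadherins, armadillo proteins and plakins, while tight junctions seal the space between cells with claudins and a scaffold beneath them. Gap junctions are channels of connexins that join neighbouring cells, and nectins are adhesion molecules that help build adherens junctions. Simple epithelia such as the gut lining rely on KRT8, KRT18 and KRT19, whereas most other keratins belong to skin, hair or stratified linings.

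Gene counts summed to 53000795 and 53777749 for the DKO libraries, against 51718468 and 51142867 for the WT libraries, and members took 0.296% and 0.303% of them in DKO and 0.327% and 0.318% in WT. Reads over TOP2A numbered 8770 and 8955 in DKO, against 6519 and 6246 in WT. Those over TOP2B numbered 7852 and 8000 in DKO, against 7264 and 7303 in WT. The degron acts on protein and counts over a whole gene can miss a small deletion, so these values do not check the labels. Of 15 colon epithelium markers 8 were tested, and 1 was higher (CA2, log2 fold change 1.32) and 2 were lower (CDH1, -0.37, and SLC26A3, -0.52). SLC26A3 lost its call without DKO replicate 2 (-0.31, adjusted p = 0.0565), WT replicate 1 (0.144) or WT replicate 2 (0.171). EPCAM stood at 72.9 and 72.2 CPM (counts scaled to an effective library size) in DKO and 69.2 and 72 CPM in WT and was not called, and CEACAM5 and FABP1 had no reads. Summed CPM over the colon markers was 166 and 168 in DKO and 178 and 180 in WT. Of 8 neuronal markers 7 were tested, 3 were higher and 1 lower, and their sum was 550 and 625 CPM in DKO against 159 and 165 CPM in WT. SYT1 made up 513 and 586 CPM of it in DKO and 131 and 135 CPM in WT. Of 10 mesenchymal markers 4 were tested, 2 were higher and 0 lower, and their sum was 6.65 and 7.07 CPM in DKO and 6.02 and 6.07 CPM in WT. VIM had 10 and 10 reads in DKO, against 4 and 0 in WT, and COL1A2 and PDGFRA had none. Of 6 immune markers 2 were tested, 1 was higher and 1 lower, and the sum of all was 0.488 and 0.601 CPM in DKO and 0.501 and 0.646 CPM in WT. The part of these marker genes in the results was not tested. In such bulk samples fewer cells of a type and less RNA per cell cannot be told apart.

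Of the 125 members, 50 had enough reads to be tested, and 27 of those were called at an adjusted p under 0.05, 9 higher and 18 lower in DKO. Of all 19103 genes tested, 40.1% were called, 19% higher and 21.1% lower, so the lower calls among members lie above that background and the higher calls near it. The median log2 fold change was -0.15 over the tested members and -0.006 over all genes. The groups did not overlap in 38 of the 50, where 67.9% of all genes showed the same. KRT80, JCAD, KRT7 and CGN fell furthest, and KRT23, DSC3 and GJA3 rose furthest among members above 1 CPM. Adjusted p-values are Benjamini-Hochberg values over all 19103 genes from edgeR's quasi-likelihood test, and each error is a standard error derived from its F statistic with 2 libraries per group. Nothing in the labels ties the replicates to separate cultures, so the p-values measure only the spread between these libraries, which may be technical. Without WT replicate 1, the calls among members numbered 3 higher and 6 lower, and without WT replicate 2, 4 higher and 12 lower.

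**Figure D1:**
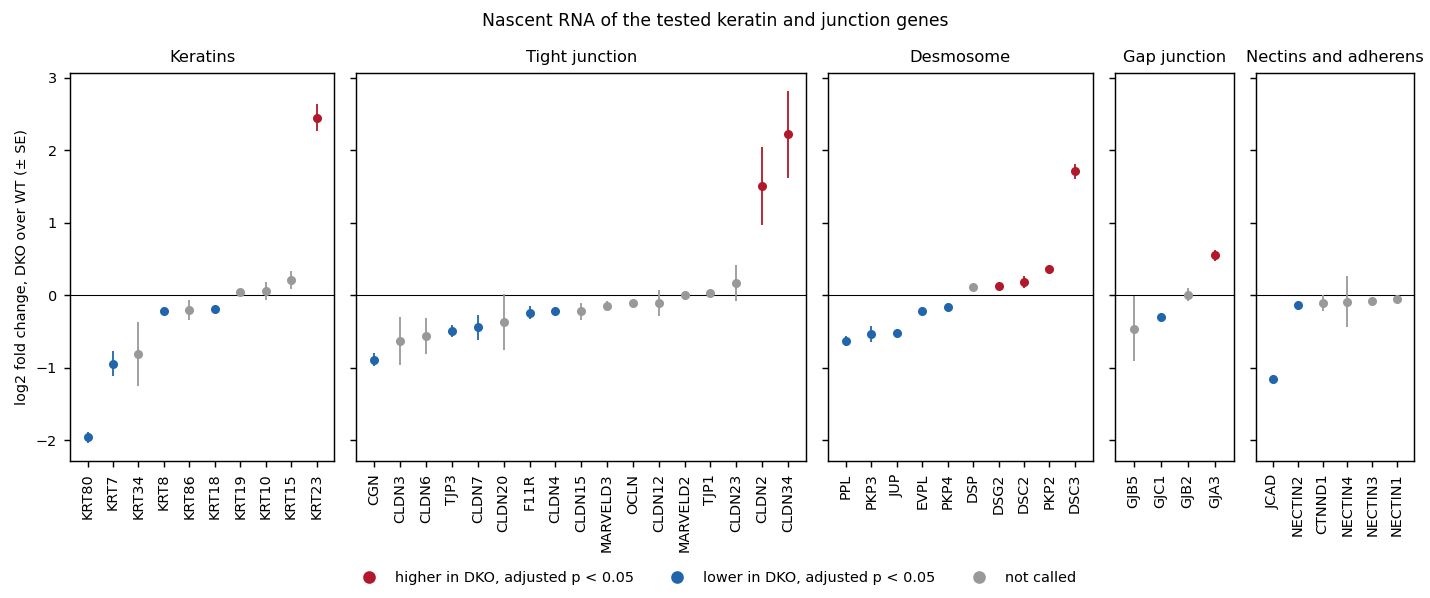
Log2 fold change of DKO over WT for 47 of the 50 tested members, by family, with bars of ±1 standard error from the edgeR fit. Most members lie close to 0, and a few genes stand apart in each family. These are KRT80 at -1.96 and KRT23 at 2.45, DSC3 at 1.71, GJA3 at 0.55 and JCAD at -1.15. Among tight junction genes they are CLDN34 at 2.22 and CLDN2 at 1.51, both on few reads with wide bars, and CGN at -0.89.

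The promoters of the members with the largest changes are shown to set the upstream sequence beside the values that follow. By the rule these are KRT80, JCAD and KRT7 among the falls and KRT23, DSC3 and GJA3 among the rises, and RefSeq promoters (GRCh38.p14) were at hand for JCAD, DSC3 and GJA3. Each line gives the 250 bases before the annotated start, 5′ to 3′ on the gene's own strand, and capitals mark motif matches. The windows lie on the minus strand at chr10:30115495-30115744 for JCAD, chr18:31042743-31042992 for DSC3 and chr13:20161053-20161302 for GJA3, and for JCAD the first of 2 listed starts was used. The GJA3 window lies inside the annotated span of the gene, next to a start within it.
JCAD: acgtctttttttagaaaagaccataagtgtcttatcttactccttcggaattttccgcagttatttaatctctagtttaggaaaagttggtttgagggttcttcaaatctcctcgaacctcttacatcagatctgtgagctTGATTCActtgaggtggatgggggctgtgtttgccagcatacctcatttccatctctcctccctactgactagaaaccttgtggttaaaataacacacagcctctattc
DSC3: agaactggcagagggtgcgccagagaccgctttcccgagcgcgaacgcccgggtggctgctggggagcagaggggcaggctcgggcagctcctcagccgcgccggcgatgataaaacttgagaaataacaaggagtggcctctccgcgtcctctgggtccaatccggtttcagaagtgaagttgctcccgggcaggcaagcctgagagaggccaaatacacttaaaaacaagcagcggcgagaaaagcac
GJA3: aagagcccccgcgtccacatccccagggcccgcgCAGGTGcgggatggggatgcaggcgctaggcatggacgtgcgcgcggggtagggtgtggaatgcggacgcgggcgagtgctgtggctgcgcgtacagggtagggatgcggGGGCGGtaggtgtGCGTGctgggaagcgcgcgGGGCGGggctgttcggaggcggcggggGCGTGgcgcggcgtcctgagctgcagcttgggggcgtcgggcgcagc
5 motifs were searched on both strands. Grainyhead-like factors are known to bind ACCGGTT, and repressors such as SNAI2 and ZEB1 the E-box, CACCTG. AP-1 is known to bind TGANTCA. The aryl hydrocarbon receptor is known to bind GCGTG, and the GC box reads GGGCGG. JCAD held 1 AP-1 match, DSC3 none of the 5 motifs, and GJA3 1 E-box, 2 GCGTG and 2 GC box matches, none overlapping. Of 27305 promoters of that length 0.634% held the Grainyhead-like letters, 17.5% the E-box, 6.6% the AP-1 letters, 31.9% GCGTG and 42.3% the GC box. Among called members with a promoter in the table, the E-box letters stood in 3 of 6 that rose and in 0 of 9 that fell, the AP-1 letters in 1 and 2, GCGTG in 1 and 4, the GC box in 3 and 6, and the Grainyhead-like letters in none. These matches are descriptions of letters, not of bound sites.

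Of the 55 keratins, 10 were tested, 1 rose and 4 fell, and 24 of the others had no read in any library. KRT80, a type II epithelial keratin, gave 6.89 and 5.72 CPM in DKO, against 25.7 and 23.2 CPM in WT, a log2 fold change of -1.96 ± 0.08 or 3.88-fold lower (adjusted p = 1.66e-56). Both DKO libraries lay far below both WT libraries. KRT80 made up 4.55% (95% Wilson interval 4.12% to 5.03%) and 4.05% (3.63% to 4.52%) of type II keratin reads in DKO, against 13% (12.3% to 13.6%) and 13.2% (12.5% to 13.9%) in WT. These intervals cover counting error only. With 2 libraries against 2, an exact two-sided permutation test of such a share can go no lower than p = 0.333. KRT7, a type II keratin of ducts and other simple epithelia, fell to 1.3 and 1.13 CPM in DKO, against 2.51 and 2.15 CPM in WT (log2 -0.94 ± 0.17, adjusted p = 1.3e-06).

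KRT23, a type I keratin, moved the other way, with 3.17 and 2.91 CPM in DKO and 0.482 and 0.626 CPM in WT, a log2 fold change of 2.45 ± 0.19 or 5.47-fold higher (adjusted p = 2.81e-25). It rests on 169 and 155 reads in DKO, against 25 and 32 in WT. The groups were well apart. KRT20, a marker of intestinal differentiation, had 8 and 7 reads in DKO, against 1 and 1 in WT. KRT32, a hair keratin, had 9 and 13 in DKO, against 3 and 2 in WT. Both were too low to test in all 4 libraries, and without DKO replicate 1 KRT32 was tested and called higher (log2 2.27, adjusted p = 0.0168). KRT81, another hair keratin, had 9 and 7 reads in DKO, against 5 and 9 in WT.

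The main keratin pair of simple epithelia changed little. KRT8 stood at 140 and 131 CPM in DKO and 166 and 147 CPM in WT (log2 -0.21 ± 0.05, adjusted p = 0.000138), and its partner KRT18 at 100 and 93.8 CPM in DKO and 117 and 103 CPM in WT (-0.19 ± 0.05, adjusted p = 0.000747). The DKO libraries lay below the WT libraries for both genes, but the nearest DKO and WT libraries differed by less than the WT libraries did. Without WT replicate 1 neither was called (KRT8 -0.116, adjusted p = 0.282, and KRT18 -0.092, adjusted p = 0.38). KRT18 kept a share of 41.7% of the pair's reads in both DKO libraries, against 41.4% and 41.3% in WT. KRT19 was not called, at 51.6 and 49.5 CPM in DKO and 50 and 48.4 CPM in WT (0.04 ± 0.05, adjusted p = 0.585). KRT8, KRT18 and KRT19 together took 92.4% of keratin reads in both DKO libraries, against 89% and 88.9% in WT. Processed pseudogenes of KRT8 and KRT18 are many and could take some of their reads. The epidermal keratins KRT10 and KRT15 and the hair keratins KRT86 and KRT34 were tested and not called, with log2 fold changes of 0.06, 0.21, -0.2 and -0.81. Per kb of annotated span, KRT18 reached 23.9 CPM in DKO and 27.2 CPM in WT and KRT19 10.8 and 10.5, while KRT80 reached 0.274 in DKO and 1.06 in WT.

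The keratin genes lie in 2 clusters and few genes in either had enough reads to be tested. On chromosome 12 (hg38, 52168996 to 52952906), 26 type II genes and KRT18 share 784 kb. The 4 keratins that fell stand there as neighbouring pairs, KRT80 and KRT7 (41.2 kb apart) at 1 end and KRT8 and KRT18 at the other, and 16 of the 27 genes had no read in any library. KRT86 is the third transcribed gene at the KRT80 end and, unlike KRT80 and KRT7, was not called. On chromosome 17, 28 type I genes lie within 1132 kb that end with JUP. KRT23 is there a transcribed gene among neighbours with few or no reads, KRT10 and KRT19 in the same cluster were not called, and the desmosome gene JUP fell.

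**Figure D2:**
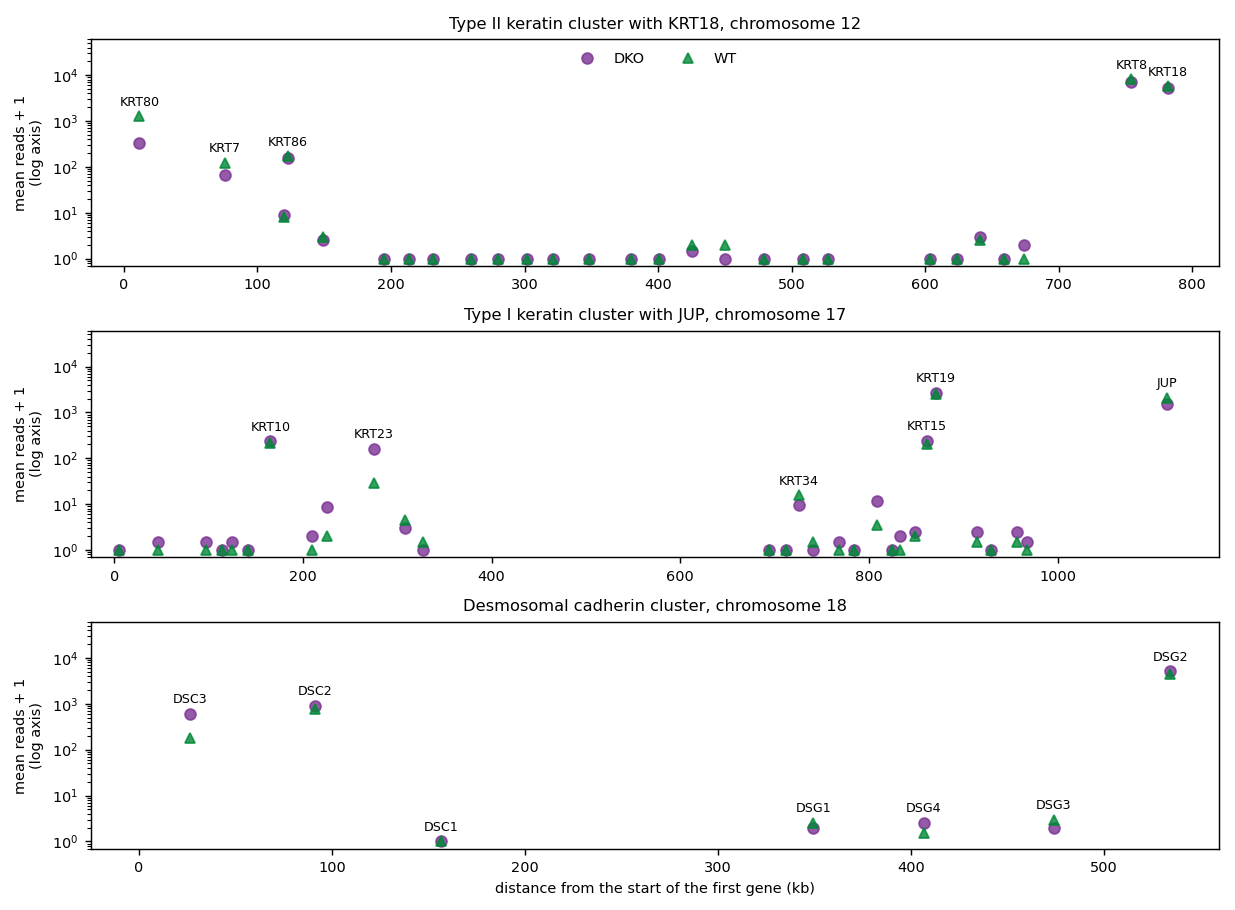
Mean reads per library plus 1, on a log axis, for each gene of the keratin clusters and the desmosomal cadherin cluster, against distance in kb from the start of the first gene. Labels mark the tested genes and all cadherins. DKO lies below WT at KRT80 and KRT7 and above WT at KRT23 and DSC3, while KRT8, KRT18, KRT19 and DSG2 nearly coincide.

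Of the 15 desmosome genes, 10 were tested, 4 rose and 5 fell. The rises held all 3 tested desmosomal cadherins and PKP2, and the falls held 3 of 4 tested armadillo genes and the plakins PPL and EVPL. DSC3, a desmocollin best known from the basal layers of stratified epithelia, gave 11.1 and 11.6 CPM in DKO and 3.68 and 3.23 CPM in WT, a log2 fold change of 1.71 ± 0.1 or 3.27-fold higher (adjusted p = 1.74e-36). Its WT libraries were both far below its DKO libraries. DSC2, the desmocollin of simple epithelia, lies 16.1 kb from DSC3 and stood at 16.5 and 17.1 CPM in DKO and 14.6 and 15.1 CPM in WT (0.18 ± 0.08, adjusted p = 0.0465). DSC3 thus made up 40.1% (Wilson 37.6% to 42.6%) and 40.3% (37.8% to 42.7%) of the reads of the pair in DKO, against 20.1% (17.7% to 22.8%) and 17.6% (15.3% to 20.2%) in WT. DSG2, the desmoglein of simple epithelia and the most highly counted desmosomal cadherin, stood at 96.6 and 94.6 CPM in DKO and 86.3 and 88.4 CPM in WT (0.13 ± 0.05, adjusted p = 0.0208). DSC1, DSG1, DSG3 and DSG4, which lie between them over the 560 kb cluster on chromosome 18, had 0 to 3 reads per library. The DSC2 call is marginal and was lost in 10 of 13 alternatives, including each library left out in turn (adjusted p of 0.0636 to 0.232). DSG2 lost its call without DKO replicate 1 (0.0734), WT replicate 1 (0.224) or WT replicate 2 (0.128).

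Among armadillo proteins, PKP2, a plakophilin that links desmosomal cadherins to desmoplakin, rose to 84.3 and 78.4 CPM in DKO, against 61.7 and 64.4 CPM in WT (log2 0.37 ± 0.05, adjusted p = 8.81e-11). JUP, or plakoglobin, which serves both desmosomes and adherens junctions, fell to 26.4 and 30 CPM in DKO, against 41.2 and 39.8 CPM in WT (-0.52 ± 0.06, adjusted p = 2.45e-14). PKP3, a plakophilin of most epithelia, fell to 4.66 and 4.8 CPM in DKO, against 7.48 and 6.17 CPM in WT (-0.53 ± 0.11, adjusted p = 1.58e-05). PKP2 thus went up while its relatives went down. The groups did not overlap in any of them, which also held for 67.9% of all genes tested. PKP4, the most highly counted of the family at 304 and 317 CPM in DKO and 352 and 342 CPM in WT, fell slightly (-0.16 ± 0.05, adjusted p = 0.00454). PKP1 had no reads.

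The plakins tie junctions to filaments. DSP, desmoplakin, was not called at 70.6 and 71.9 CPM in DKO and 66.9 and 65.6 CPM in WT (log2 0.11 ± 0.05, adjusted p = 0.0817), although it passed with upper quartile factors (0.0196) and with at least 50 reads required (0.0414). PPL, periplakin, fell to 14.4 and 15.9 CPM in DKO, against 23.6 and 23.3 CPM in WT (-0.63 ± 0.07, adjusted p = 9.4e-15). EVPL, envoplakin, its partner in the cornified envelope of skin, fell less, to 24.8 and 28.3 CPM in DKO, against 33 and 29 CPM in WT (-0.22 ± 0.06, adjusted p = 0.00267). The nearest DKO and WT libraries of EVPL differ by less than its WT libraries do, and the call was lost without DKO replicate 1 (adjusted p = 0.178), WT replicate 1 (0.438) or WT replicate 2 (0.0838). Without WT replicate 1, PKP2 (0.0549), PKP3 (0.088) and PKP4 (0.19) also missed the threshold, the last also without WT replicate 2 (0.0985). JUP, PPL and DSC3 were called with each library left out in turn.

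**Figure D3:**
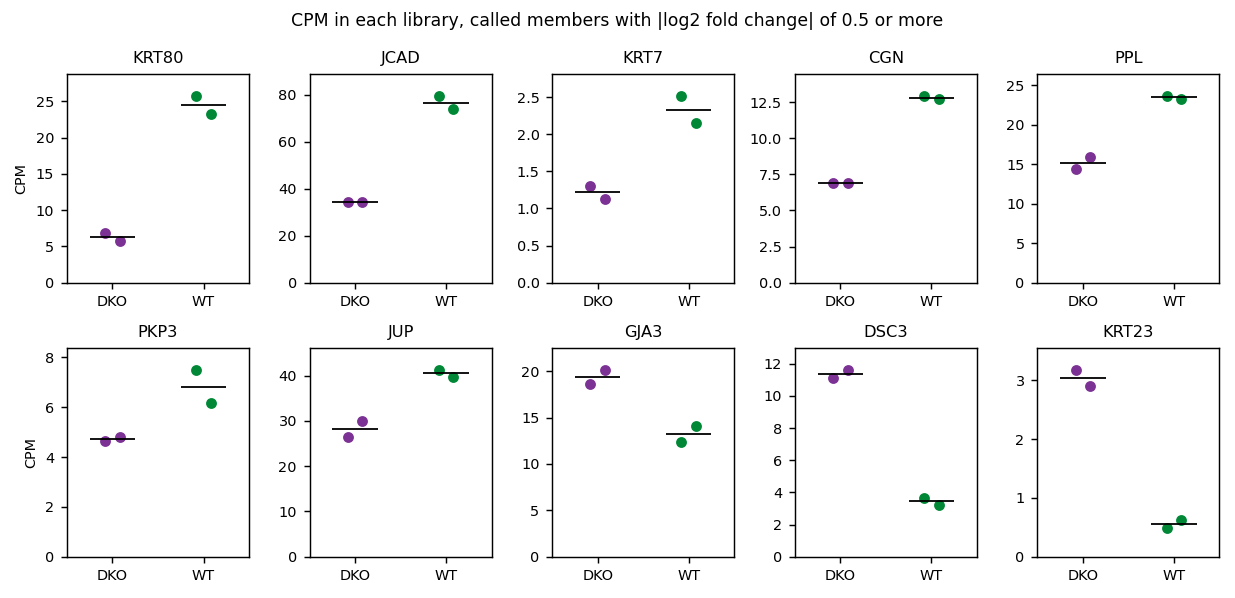
CPM in each library for the 10 called members with an absolute log2 fold change of at least 0.5 and a mean of at least 1 CPM, with a line at each group mean of 2 libraries. In every panel both DKO points lie on 1 side of both WT points, below for KRT80, JCAD, KRT7, CGN, PPL, PKP3 and JUP and above for GJA3, DSC3 and KRT23. Of all genes tested, 67.9% showed such a separation.

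Of the 32 tight junction genes, 18 were tested, 3 rose and 5 fell. The clearest change was in CGN, cingulin, a plaque protein that connects the junction with actomyosin. It fell to 6.91 and 6.92 CPM in DKO, against 12.9 and 12.7 CPM in WT (log2 -0.89 ± 0.09, 1.85-fold, adjusted p = 2e-17). TJP3, a scaffold of the zonula occludens family, fell to 9.47 and 10.4 CPM in DKO, against 14.1 and 14 CPM in WT (-0.49 ± 0.08, adjusted p = 2.12e-07). Its relative TJP1, the main scaffold and the most highly counted tight junction gene, was not called at 360 and 362 CPM in DKO and 351 and 355 CPM in WT (0.03 ± 0.05, adjusted p = 0.632). Among membrane proteins, F11R, a junctional adhesion molecule, fell slightly to 10.8 and 10.1 CPM in DKO, against 12.7 and 12.2 CPM in WT (-0.24 ± 0.09, adjusted p = 0.0143). OCLN, occludin, was not called at 49.8 and 51.1 CPM in DKO and 54.1 and 55 CPM in WT (-0.11 ± 0.05, adjusted p = 0.0744). MARVELD2, tricellulin, of the corners where cells meet, had a log2 fold change of 0 ± 0.06 and MARVELD3 one of -0.15 ± 0.07, and neither was called in the comparison of all 4 libraries. Without DKO replicate 1, MARVELD3 passed (-0.2, adjusted p = 0.0391).

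Of 24 claudins, the sealing and pore-forming proteins of the tight junction, 10 were tested. CLDN4, a barrier claudin and the most highly counted, stood at 27.5 and 29.1 CPM in DKO and 31 and 35.1 CPM in WT (log2 -0.22 ± 0.06, adjusted p = 0.0019). Its nearest DKO and WT libraries differed by less than its WT libraries did. CLDN7, which also serves the lateral membrane of gut cells, stood at 1.31 and 1.76 CPM in DKO and 2.04 and 2.13 CPM in WT (-0.44 ± 0.17, adjusted p = 0.0271). CLDN2, which forms a cation pore, and CLDN34 rose, both with few reads. CLDN2 had 13 and 11 reads in DKO, against 3 and 5 in WT (1.51 ± 0.54, adjusted p = 0.0183), and CLDN34 had 12 and 13 in DKO and 3 and 2 in WT (2.22 ± 0.6, adjusted p = 0.00123). Among the untested claudins, CLDN9 had no reads in DKO, against 5 and 3 in WT. CLDN14 had 11 and 7 in DKO and 2 and 9 in WT, and CLDN10 had 10 and 3 in DKO and 6 and 5 in WT. CLDN1 was listed at 0 in all 4 libraries. Whether an overlapping feature removed its reads could not be tested, so its level is uncertain. Of the tested claudins not called, CLDN3 had the lowest log2 fold change, -0.63 ± 0.33, and CLDN23 the highest, 0.17 ± 0.25, with CLDN6, CLDN12, CLDN15 and CLDN20 between them. CLDN20 lies within TFB1M on the other strand and passed only without DKO replicate 2 (-1.83, adjusted p = 0.022).

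Many tight junction calls missed the threshold when a library was left out, which also cut the calls over all genes. Leaving out WT replicate 1 ended those of F11R (adjusted p = 0.185), CLDN4 (0.0607), CLDN7 (0.233), TJP3 (0.0508), CLDN2 (0.187) and CLDN34 (0.0651), and leaving out WT replicate 2 those of F11R (0.0994), CLDN4 (0.242), CLDN7 (0.253), CLDN2 (0.0795) and CLDN34 (0.0699). F11R (0.132) and CLDN2 (0.0747) also failed without DKO replicate 2, and CLDN7 (0.361) and CLDN2 (0.152) without DKO replicate 1. Over their alternatives the log2 fold changes ranged from -0.29 to -0.20 for F11R, from -0.31 to -0.13 for CLDN4, from -0.67 to -0.24 for CLDN7 and from -0.57 to -0.42 for TJP3. Those of CLDN2 ranged from 1.18 to 1.92 and those of CLDN34 from 1.97 to 2.51. CGN kept its call in all 13 alternatives. By the Wald test of DESeq2, 0 tight junction genes were higher and 3 lower, but CLDN2 and CLDN34 received no adjusted p in that test.

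Overlapping annotation limits some of these values. Genes lying inside a well-transcribed gene of the same strand had no reads in 33 of 40 cases, against 13 of 250 on the opposite strand, so reads that fall on more than 1 feature of a strand were largely left out of these tables. RefSeq annotates a readthrough transcript, TMX2-CTNND1, over all of TMX2 and most of CTNND1, and TMX2 was listed at 0 in every library. The level of CTNND1 is therefore uncertain.

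Of the 17 connexins, 6 were tested, 1 rose and 2 fell. GJA3, a connexin best known from the lens, stood at 18.6 and 20.1 CPM in DKO and 12.4 and 14.1 CPM in WT (log2 0.55 ± 0.08, 1.46-fold, adjusted p = 1.36e-10). GJB2, a widely expressed epithelial connexin 25.9 kb from it on chromosome 13, was not called, at 11.4 and 9.64 CPM in DKO and 10.6 and 10.2 CPM in WT (0.01 ± 0.09, adjusted p = 0.916). GJA3 accounted for 62.1% (Wilson 59.7% to 64.5%) and 67.6% (65.3% to 69.9%) of the reads of this pair in DKO, against 53.9% (51% to 56.7%) and 58.1% (55.3% to 60.8%) in WT. The replicates of each group differ in that share about as much as the nearest libraries of the 2 groups do.

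GJC1 was the most highly counted connexin, with 68.2% and 68.9% of all connexin reads in DKO, against 73.9% and 74% in WT. It is best known from heart and smooth muscle. It fell to 90.8 and 89.7 CPM in DKO, against 110 and 113 CPM in WT (log2 -0.3 ± 0.05, adjusted p = 9.98e-09). GJB5 was tested at 8 to 12 reads per library and not called. GJB7, at 7 and 8 reads in DKO against 2 and 4 in WT, and GJC3, with 5 and 7 in DKO and 4 and 5 in WT, were too low to test. GJA1, the most widespread connexin of the body, had 0 and 0 reads in DKO, against 1 and 0 in WT.

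All 6 of the remaining members were tested, 2 fell and none rose. JCAD, a junction-associated protein first described at endothelial cadherin junctions, fell to 34.6 CPM in both DKO libraries, against 79.4 and 74 CPM in WT (log2 -1.15 ± 0.05, 2.21-fold, adjusted p = 3.98e-51). It spans 103 kb of chromosome 10, from 30012803 to 30115494, and its groups lay far apart. Called genes over 2-fold lower made up 1.33% of all genes tested and those over 2-fold higher 3.22%, and JCAD, KRT80, KRT23, DSC3, CLDN2 and CLDN34 are the 6 members beyond that size.

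NECTIN3 was the most highly counted of all members, at 1170 and 1280 CPM in DKO and 1310 and 1280 CPM in WT, and was not called (log2 -0.08 ± 0.06, adjusted p = 0.235). Its groups overlap, and without DKO replicate 2 it passed (-0.152, adjusted p = 0.0368). NECTIN2 fell by little, to 37.5 and 37.8 CPM in DKO, against 41.9 and 41 CPM in WT (-0.14 ± 0.06, adjusted p = 0.0386). That call was lost in 8 of 13 alternatives, among them DESeq2 size factors (adjusted p = 0.0509), upper quartile factors (0.129) and each library left out in turn (0.0783 to 0.212). NECTIN1, at 69.1 and 66.7 CPM in DKO and 69.8 and 71 CPM in WT (-0.05 ± 0.05, adjusted p = 0.429), NECTIN4 (-0.09 ± 0.35) and CTNND1, the catenin that keeps cadherins at the membrane (-0.11 ± 0.11), were not called.

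No member lies on chromosome 20. By annotated span, the members that rose had a median of 43.6 kb, those that fell 27.2 kb and those not called 12.5 kb, where all genes that rose had 59.9 kb, all that fell 25.1 kb and all not called 27.4 kb. Sums over a family weigh its most highly counted genes most. Keratins summed to 315 and 297 CPM in DKO and 374 and 336 CPM in WT, desmosome genes to 653 and 670 in DKO and 691 and 677 in WT, and connexins to 133 and 130 in DKO and 149 and 153 in WT. Desmosomal cadherins alone were higher as a sum, at 124 and 123 CPM in DKO and 105 and 107 CPM in WT, and desmosomal armadillo genes lower, at 419 and 430 CPM in DKO and 462 and 452 CPM in WT.

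In 9 lists of genes related to the members, 24 were higher and 26 lower, and the number tested is given with each list. Of all genes tested, 19% were higher and 21.1% lower. Of 9 adherens junction genes 2 rose and 4 fell (median log2 fold change 0.04). LIMA1, which links catenins to actin, fell furthest, to 71.2 and 75.1 CPM in DKO, against 134 and 137 CPM in WT (-0.89 ± 0.05, adjusted p = 3.23e-43), followed by CDH1, the epithelial cadherin (-0.37 ± 0.05, adjusted p = 5.96e-11), and vinculin, VCL (-0.3 ± 0.05). CTNNB1, beta-catenin, rose (0.24 ± 0.05, adjusted p = 4.92e-06, and 0.0681 without WT replicate 1). Of 13 other tight junction genes tested 4 rose and 4 fell (median -0.05). CGNL1, the paralog of cingulin, rose to 330 and 363 reads in DKO, against 206 and 189 in WT (0.76 ± 0.11, adjusted p = 2.22e-09), the opposite direction to CGN. CXADR, an adhesion receptor of the junction, fell (-0.6 ± 0.05, adjusted p = 3.22e-24). Of 13 tested polarity genes 3 rose and 4 fell (median -0.05), with PARD3B at 1.07 ± 0.05 (adjusted p = 1.02e-48), PARD6B on chromosome 20 at -0.57 ± 0.05 (4.92e-24) and LLGL2 at -0.39 ± 0.05 (5.22e-11).

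Of the 9 hemidesmosome genes, which anchor keratins to the basement membrane, 4 rose and 4 fell (median 0.18). COL17A1 rose on 39 and 38 reads in DKO, against 27 and 18 in WT (0.72 ± 0.28, adjusted p = 0.0324), a call lost with any 1 library left out (0.0875 to 0.273), and CD151 fell (-0.37 ± 0.08, adjusted p = 4.19e-05, and 0.0852 without WT replicate 1). Of 16 cornified envelope genes 4 were tested and 9 had no reads. CSTA, cystatin A, rose to 218 and 205 reads in DKO, against 8 and 10 in WT (4.49 ± 0.24, adjusted p = 3.41e-44), while SFN fell (-0.35 ± 0.1, adjusted p = 0.00192) and lost its call without DKO replicate 2 (0.149), WT replicate 1 (0.195) or WT replicate 2 (0.146). Other intermediate filament genes had 1 rise, LMNB1, and 1 fall, LMNA, among 8 tested (median 0.05). LMNA (0.183) and LMNB1 (0.112) missed the threshold without WT replicate 1, and LMNB1 (0.0804) also without WT replicate 2. Of 2 further channel genes tested, PANX1 rose (0.19 ± 0.05), though not without WT replicate 1 (0.0993) or WT replicate 2 (0.0593).

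Regulators of epithelial genes went both ways as well. Of 17 tested epithelial transcription and splicing regulators 5 rose and 7 fell (median 0.19). FOXA1 rose by 0.82 ± 0.14 (adjusted p = 2.24e-07), GRHL1, a Grainyhead-like factor that acts on desmosomal genes, by 0.58 ± 0.07 (6.73e-12), and KLF4 by 0.5 ± 0.12 (0.000318). TP63, a factor of stratified epithelia (-0.77 ± 0.19, adjusted p = 0.000458), ELF3 (-0.63 ± 0.15, 0.000328) and OVOL2 on chromosome 20 (-0.55 ± 0.08, 1.1e-09) fell furthest. Of 7 repressors of epithelial genes, 4 were tested, 3 rose and 1 fell. TWIST1 rose to 6.1 and 6.47 CPM in DKO, against 0.791 and 0.685 CPM in WT (3.09 ± 0.16, adjusted p = 1.19e-45), and ZEB1 to 91.5 and 100 CPM in DKO, against 50.1 and 51 CPM in WT (0.92 ± 0.05, adjusted p = 5.25e-42). SNAI2 rose on 30 and 16 reads in DKO, against 7 and 10 in WT (1.37 ± 0.4), and SNAI1 on chromosome 20 fell (-0.3 ± 0.07). Without WT replicate 1, KLF4 (adjusted p = 0.147), TP63 (0.125), ELF3 (0.159), SNAI2 (0.253) and SNAI1 (0.0614) missed the threshold, as did KLF4 (0.481), TP63 (0.127), SNAI2 (0.127) and SNAI1 (0.0542) without WT replicate 2 and KLF4 (0.284), TP63 (0.0614) and SNAI2 (0.262) without DKO replicate 1.

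**Figure D4:**
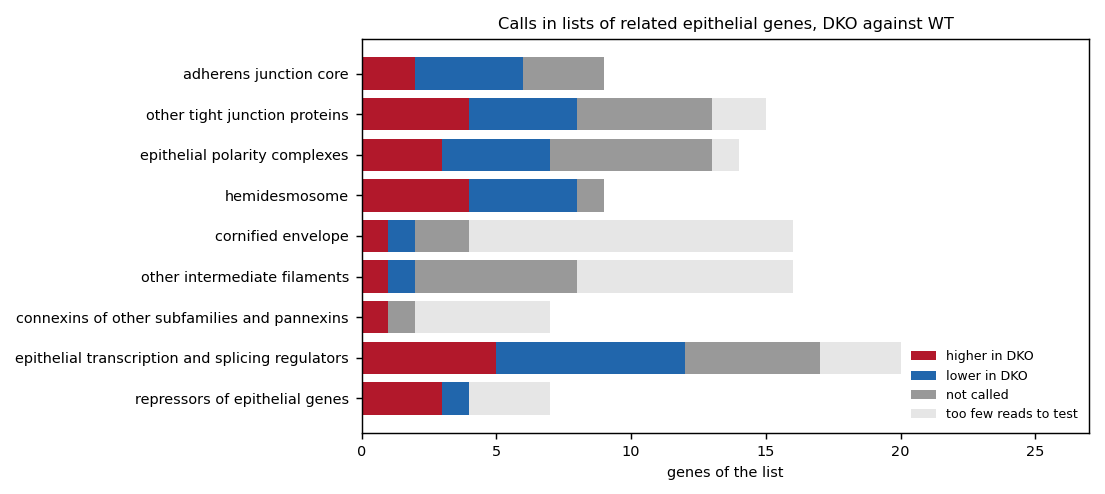
Number of genes higher in DKO, lower in DKO, not called and too low to test in 9 lists of genes related to the members. Rises and falls stand side by side in most lists, such as 4 and 4 among hemidesmosome genes and 5 and 7 among epithelial regulators.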

How the data were processed

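Per the labels' protocols, 66 ng of labelled RNA per sample went into a stranded kit and was sequenced as single reads of 75 bp. The authors deposited raw read counts per Ensembl gene. Per the submitters' processing notes, STAR 2.7.3a, featureCounts 1.6 and hg38 were used. The sources used here do not give the gene set or counting options. Values are relative to library totals, with no spike-in.

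Symbols were matched for 42058 of 60656 IDs, and spans came from RefSeq (GRCh38.p14). Counts were tested with edgeR 4.0.16 in R 4.3.3 (quasi-likelihood F-test, group as the only term, TMM factors of 0.992 to 1.005, filterByExpr with a minimum count of 10 and total of 15), and calls were made at an adjusted p under 0.05. CPM uses TMM-scaled totals. A replicate chi-square per degree of freedom of 4.98 (DKO) and 4.33 (WT) showed more spread between replicates than counting alone gives. All 4 libraries were kept. The test was also run on counts simulated with the same relative spread for every gene, which cannot check the real spread between libraries. Alternatives used DESeq2 1.42.0 and limma 3.58.1, and figures matplotlib 3.10.9.

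The members, lists and tests were chosen with earlier results of these data known. Called members are named, except for a few genes that are included in the counts but not reported here. Members with an absolute log2 fold change of 0.5 or the 3 highest counts of a family get values per library, as do others here. Untested members are named from 5 reads, and lists by up to 3 called genes per direction.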

Additional observations from a re-analysis of the deposited data

How the results depend on the processing

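Of the 27 called members, 9 kept their call in all 13 alternatives (KRT23, DSC3 and GJA3 higher, and KRT80, JCAD, CGN, PPL, JUP and GJC1 lower). No called member, and none of the 3 most highly counted tested members of each family, changed direction in any alternative that gave it a result. The direction of the other members was not followed. With no filter beyond 1 read, 1640 genes in all were higher and 1655 lower, and members numbered 5 higher and 9 lower, with 2 keratins lower, 1 tight junction gene higher and 2 lower, 2 desmosome genes higher and 2 lower, 1 nectin or adherens gene lower, and 14 related-list genes higher and 11 lower. By the Wald test of DESeq2 there were 2524 genes lower in all, 5 members higher, 0 tight junction genes higher and 3 lower, 1 nectin or adherens gene lower and 17 related-list genes lower. CLDN2 and CLDN34 received no adjusted p in that test and so could not be called. Requiring at least 50 reads in 2 libraries left 1 tight junction gene higher, since CLDN2 and CLDN34 were then not tested. With DESeq2 size factors or upper quartile factors 1 nectin or adherens gene was lower.

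With 1 library left out at a time, all genes ranged from 1023 to 3127 higher and 928 to 3443 lower, members from 3 to 7 higher and 6 to 18 lower, keratins from 1 to 2 higher and 1 to 4 lower, tight junction genes from 0 to 2 higher and 1 to 5 lower, desmosome genes from 1 to 3 higher and 2 to 5 lower, connexins from 1 to 2 lower, nectin and adherens genes from 1 to 2 lower, and related-list genes from 9 to 24 higher and 8 to 25 lower. The lowest counts came without WT replicate 1, and why they were lowest there was not tested. With either WT library left out, only the DKO pair informs the spread and the lone WT library is assumed to vary likewise.

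The labels give replicate numbers no meaning, and same-numbered libraries did not deviate together (r = 0.0114 over genes). With the replicate number as a block, 3742 genes in all were higher and 4078 lower, and 8 members were higher and 18 lower, DSC2 being the call lost (adjusted p = 0.056). Members with few reads, such as CLDN2 and CLDN34, are limited by depth.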
